A study of Mus musculus with 11 samples.

Results

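The 8 biliary and duct cell genes Spp1, Sox9, Krt7, Krt19, Epcam, Cftr, Muc1 and Prom1 were followed in whole mouse liver after forced expression of active Notch receptors. They were chosen by gene name, and every probe whose RefSeq accession belonged to one of these 8 genes was taken, which gave 11 probes of the 56605 on the array, where 22911 genes were named in all. Livers were collected from male C57Bl6/J mice 5 days after intraperitoneal injection of AAV8, an adeno-associated virus with a strong tropism for liver. The mice were 8 weeks old at injection, none was given a carcinogen, and the total dose was 6e+11 viral genomes per mouse. In the GFP group (n = 3) all of this was GFP vector. The NICD1 group (n = 3) received 3e+11 of the vector for the Notch1 intracellular domain and 3e+11 of the GFP vector, and the NICD2 group (n = 3) received 3e+11 of the vector for the Notch2 intracellular domain and 3e+11 of the GFP vector. In the NICD1&2 group (n = 2) both NICD vectors were given at 3e+11, without GFP vector. The vectors carried the CMV promoter, which is not restricted to hepatocytes, so the arrays do not show which cells expressed the transgenes.

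The bile ducts are lined by cholangiocytes, epithelial cells that take up and modify bile, carry a primary cilium and are held together by keratins and tight junctions. Cholangiocytes and hepatocytes share an embryonic progenitor, and Notch signalling, in which a cleaved intracellular domain joins the DNA-binding protein RBPJ to switch on target genes, is known for its part in forming the ducts. Sox9 is a transcription factor of the duct lineage, Krt7 and Krt19 are its keratins, Epcam is an adhesion protein of epithelia, Cftr is the chloride channel of the apical membrane, Muc1 is a membrane mucin, Prom1 (CD133) is a protein of membrane protrusions, and Spp1 encodes osteopontin, a secreted phosphoprotein that macrophages can also make.

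The promoters of Spp1, which showed the largest differences among the 8 genes, and of Krt7, which was measured on every array without passing the test, are given for the 250 bases before the RefSeq start (GRCm38.p6, 5′ to 3′, plus strand). Spp1 lies on chromosome 5 from 104435111 to 104441053 and Krt7 on chromosome 15 from 101412403 to 101427806.
Spp1, chr5:104434861-104435110: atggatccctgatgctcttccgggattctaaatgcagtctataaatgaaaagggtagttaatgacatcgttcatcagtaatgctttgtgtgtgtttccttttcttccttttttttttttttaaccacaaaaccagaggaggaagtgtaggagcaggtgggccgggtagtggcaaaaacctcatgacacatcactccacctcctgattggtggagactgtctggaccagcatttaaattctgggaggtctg
Krt7, chr15:101412153-101412402: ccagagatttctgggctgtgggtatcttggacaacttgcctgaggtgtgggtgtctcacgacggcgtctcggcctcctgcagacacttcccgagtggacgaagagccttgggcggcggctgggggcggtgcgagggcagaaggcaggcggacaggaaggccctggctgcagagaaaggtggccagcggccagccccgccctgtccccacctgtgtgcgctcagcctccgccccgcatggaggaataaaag
Both windows were searched on both strands for the core that RBPJ is known to bind, TGGGAA, and for a SOX core, ACAAT, and letters that matched would be in capitals. Neither window held either core. RefSeq entries were at hand for 6 of the 8 genes, in 8 windows, of which 1, a window of Prom1, held the RBPJ core and 0 held the SOX core. Among all 32851 windows of this length, 21.6% held the RBPJ core and 27.7% the SOX core. A missing match says only that these letters are not in this window.

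Each array held 62976 spots, of which between 57.0% and 62.0% were well above background by the scanner software and 0 were saturated. Levels are given as log2 of the processed signal relative to the 75th percentile of the same array, so 0 is the level of a fairly bright probe. The median of all probes was lowest on the array of GFP mouse 1, at −4.06, against −3.91 to −3.50 on the others. The 10 hepatocyte markers examined were well above background on all 11 arrays, and the log2 of their summed signal ranged from 11.8 to 12.2 over the arrays. The brightest genes of a list contribute most to such a sum. Fewer cells of a type and less RNA per cell cannot be told apart in such bulk tissue.

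Of the 11 member probes, 5 were well above background on all 11 arrays, namely those of Spp1, Krt7 and Krt19 and both probes of Sox9. The probes of Epcam and Muc1 were so on 10 arrays, the exception being GFP 1 in each case, and the first Cftr probe was so on 3 arrays. Both Prom1 probes and the second Cftr probe were not well above background on any array, so Prom1 gave no level in these livers. With a filter of at least 2 arrays well above background, 8 of the 11 member probes, from 7 of the 8 genes, were among the 36055 probes tested. The filter disregarded group, and on the first Cftr probe 1 array each of GFP, NICD1 and NICD2 was above background.

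**Figure D1:**
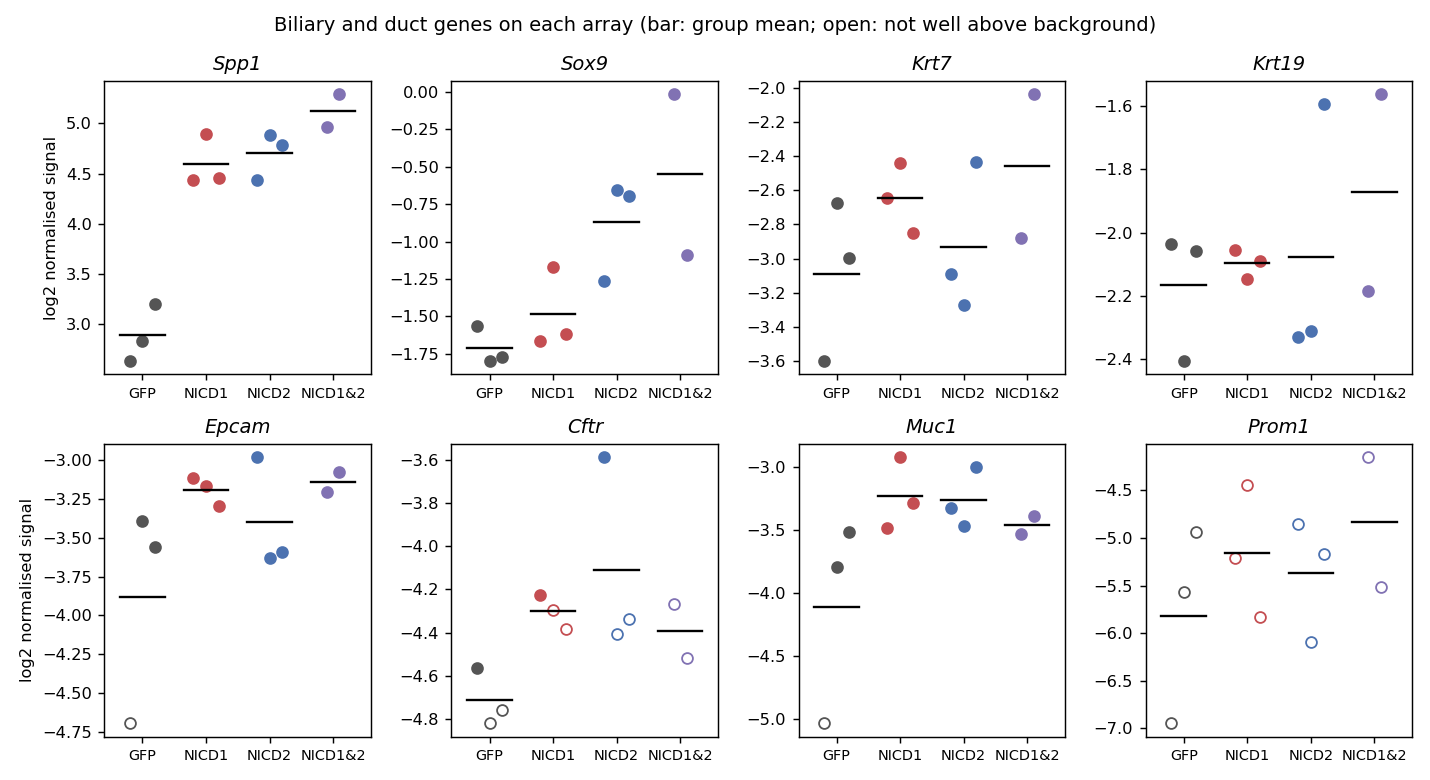
Level of each of the 8 genes on the 11 arrays (vertical axis, log2 normalised signal of the probe with the highest mean; each panel has its own scale) by group (horizontal axis). Bars are group means, filled circles were well above background and open circles were not. Spp1 lay between 2.64 and 3.20 on the GFP arrays and between 4.44 and 5.29 on all others, whereas Krt19 stayed between −2.41 and −1.56 throughout.

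Spp1 was higher in every liver that received an NICD vector than in every GFP liver. Its level rose 3.51-fold with NICD2 and 4.70-fold with NICD1&2, and it was 3.26-fold higher with NICD1, where the difference missed the threshold after adjustment. The other genes of the group showed smaller differences, and none passed the adjusted test in any of the 6 comparisons made. Against GFP, 0 of the 8 tested member probes were called with NICD1, 1 with NICD2 and 1 with NICD1&2, at a Benjamini-Hochberg adjusted p under 0.05 in limma over all probes. Of all probes tested, 0.00832%, 0.0527% and 0.0998% were called in these comparisons. The unadjusted p was under 0.05 for 2, 4 and 2 of the 8 probes, and for 5.48%, 6.81% and 14.8% of all probes. Differences between arrays labelled as replicates set these p-values, and an exact permutation test over arrays cannot give less than p = 0.1 in any of these designs.

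The log2 level of Spp1 was 2.64, 2.83 and 3.20 on the GFP arrays. It was 4.44, 4.90 and 4.46 on the NICD1 arrays and 4.44, 4.89 and 4.78 on the NICD2 arrays. It was 4.96 and 5.29 on the NICD1&2 arrays. The highest GFP level was therefore below the lowest level of each NICD group, and both NICD1&2 levels were above all 6 levels of the single NICD groups. The log2 difference from GFP was 1.71 (SE 0.20, adjusted p = 0.0964, limma) for NICD1. It was 1.81 (SE 0.20, adjusted p = 0.0270, limma) for NICD2 and 2.23 (SE 0.22, adjusted p = 0.0111, limma) for NICD1&2. By p-value the Spp1 probe ranked 5th, 11th and 12th among the 36055 probes in these comparisons. The 3 comparisons share the GFP arrays.

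These calls depended on single arrays. The size of the difference changed little, between 1.56 and 1.86 for NICD1, 1.69 and 1.97 for NICD2 and 2.07 and 2.40 for NICD1&2 when each array was left out in turn. The adjusted p for NICD2 was above 0.05 without GFP 1 (0.121), GFP 2 (0.104), NICD1 1 (0.0530), NICD1 3 (0.0673), NICD2 2 (0.148) or NICD2 3 (0.131), and that for NICD1&2 without GFP 2 (0.0530) or NICD1&2 2 (0.181). The arrays lay on 2 slides, each with all 4 groups. Within the slides the log2 difference was 1.70 and 1.47 for NICD1, 1.93 and 1.58 for NICD2, and 2.22 and 2.09 for NICD1&2.

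Levels of Spp1 in the 2 single NICD groups differed by less than the spread of the arrays. NICD1 minus NICD2 was −0.10 on the log2 scale (95% interval −0.56 to 0.35, adjusted p of 1, limma). NICD1&2 was higher than NICD1 by 0.53 (interval 0.02 to 1.03, adjusted p = 0.392, limma) and higher than NICD2 by 0.42 (interval −0.08 to 0.93, adjusted p = 0.575, limma). In order of mean level GFP was lowest, followed by NICD1, NICD2 and NICD1&2, and the last 3 were not separated from one another by the adjusted test.

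Because macrophages also make osteopontin, 9 macrophage genes were set beside it. Of these, 8 were tested and 0 were called in the comparisons with GFP. An unadjusted p under 0.05 was found for 1, 1 and 0 of them with NICD1, NICD2 and NICD1&2 (5.48%, 6.81% and 14.8% of all probes). In each case the gene was lower, and by the study's definition 1 was lower with NICD1. The fitted difference was above 0 for 1, 1 and 5 of them (52.9%, 54.3% and 65% of all probes). The log2 of the summed signal of the 9 genes ranged from 5.81 to 6.31 on the GFP arrays, from 5.81 to 5.99 with NICD1, from 5.86 to 6.04 with NICD2 and from 6.20 to 6.35 with NICD1&2. Gpnmb, a gene of lipid-laden macrophages, was not well above background on any array. The median log2 difference of the 8 genes was −0.22 for NICD1, −0.19 for NICD2 and 0.08 for NICD1&2, where Spp1 was higher by 1.71, 1.81 and 2.23. Marco, a scavenger receptor of macrophages, differed from GFP by −0.89, −0.70 and 0.51 with NICD1, NICD2 and NICD1&2 (adjusted p = 0.903, 0.863 and 0.618, limma), and its arrays overlapped with GFP in each group. The part of macrophages in the level of Spp1 was not tested, and bulk levels do not show which cells made it.

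**Figure D2:**
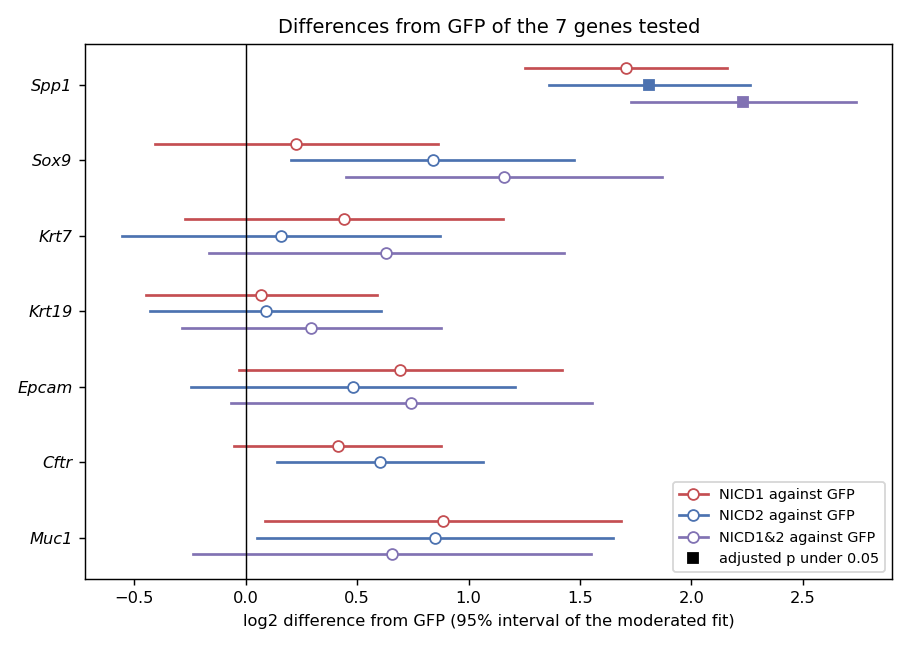
Log2 difference from GFP (horizontal axis) of the 7 tested genes (vertical axis), for NICD1, NICD2 and NICD1&2. Points are the fitted differences, lines their 95% intervals, and filled squares mark an adjusted p under 0.05. Cftr in NICD1&2, not well above background on any array, is left out. Only the intervals of Spp1, all above 1.25, were clear of those of Krt19, which all included 0.

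Sox9, the transcription factor of the duct lineage, stood higher than GFP in the NICD2 and NICD1&2 livers, but none of its differences passed the adjusted test. Its brighter probe read −1.57, −1.80 and −1.77 on the GFP arrays and −1.66, −1.17 and −1.62 on the NICD1 arrays. It read −1.27, −0.66 and −0.69 with NICD2 and −0.02 and −1.09 with NICD1&2. All NICD2 and NICD1&2 arrays were above all GFP arrays, whereas the NICD1 arrays overlapped with GFP.

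The log2 difference of Sox9 from GFP was 0.23 (SE 0.28, adjusted p = 0.938, limma) for NICD1. It was 0.84 (SE 0.28, adjusted p = 0.580, limma) for NICD2. For NICD1&2 it was 1.16, or 2.23-fold (SE 0.31, adjusted p = 0.197, limma). NICD1 minus NICD2 was −0.61 (interval −1.25 to 0.02, adjusted p of 1, limma) and NICD1&2 minus NICD1 was 0.93 (interval 0.22 to 1.64, adjusted p = 0.358, limma). Without NICD1&2 1 the difference of NICD1&2 from GFP was 0.62, and without NICD1&2 2 it was 1.69. Within the slides the difference from GFP was 0.02 and 0.38 for NICD1, 0.72 and 1.08 for NICD2, and 1.66 and 0.69 for NICD1&2.

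The second Sox9 probe gave the same order with smaller differences, 0.05, 0.37 and 0.58 from GFP for NICD1, NICD2 and NICD1&2. Its levels were −3.08, −2.58 and −2.85 with GFP, −2.71, −2.65 and −2.99 with NICD1, −2.76, −2.64 and −1.99 with NICD2, and −2.03 and −2.49 with NICD1&2. On this probe NICD2 overlapped with GFP and NICD1&2 did not.

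None of the differences of the duct keratins passed the test, and their groups overlapped. Krt19 read −2.04, −2.41 and −2.06 with GFP, −2.06, −2.15 and −2.09 with NICD1, −2.33, −2.31 and −1.59 with NICD2, and −2.18 and −1.56 with NICD1&2. Every NICD group overlapped with GFP, and the highest levels came from single arrays, NICD2 3 and NICD1&2 2. Differences from GFP were 0.07 (interval −0.45 to 0.59), 0.09 (−0.43 to 0.61) and 0.29 (−0.29 to 0.88) for NICD1, NICD2 and NICD1&2. These intervals leave room for a change of up to 0.88 on the log2 scale in the last case.

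Krt7 read −3.60, −2.67 and −3.0 with GFP and −2.65, −2.44 and −2.85 with NICD1. It read −3.09, −3.27 and −2.43 with NICD2, and −2.88 and −2.04 with NICD1&2. NICD2 3 and NICD1&2 2 were again the highest arrays of their groups, and all groups overlapped with GFP. The differences from GFP were 0.44 (SE 0.32), 0.16 (SE 0.32) and 0.63 (SE 0.35), with adjusted p of 0.914, 0.982 and 0.410 in limma. Without GFP 1 they were 0.19, −0.097 and 0.38. The difference for NICD1&2 was 1.05 without NICD1&2 1 and 0.21 without NICD1&2 2, and that for NICD2 was −0.091 without NICD2 3.

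The liver surface is covered by mesothelium, which also expresses keratins, and its genes were therefore set beside Krt19 and Krt7. Of 7 mesothelial genes, 6 had a named probe, 5 were tested and 0 were called. Lrrn4 was not well above background on any array. The log2 of the summed signal of the 6 ranged from −1.86 to −0.83 with GFP, from −0.56 to −0.21 with NICD1, from −1.23 to 0.22 with NICD2 and from −0.99 to 0.77 with NICD1&2. All 5 tested genes had positive differences from GFP in each NICD group, where 52.9%, 54.3% and 65% of all probes did, with medians of 0.78, 0.64 and 0.66, or 0.80, 0.76 and 0.88 over the 4 genes that were well above background in both groups of the comparison. These counts and medians rested in part on single arrays. Without NICD1&2 2, 3 of the 5 were above GFP in NICD1&2, with a median of 0.11, and the difference of Msln was 0.39 in place of 1.31. Without NICD1&2 1 that median was 1.81, and without GFP 3 it was 1.03. For NICD2, 3 of the 5 were above GFP without NICD2 3 and 3 without GFP 2 (medians 0.50 and 0.40), and the median was 1.13 without NICD2 1. For NICD1 the median was 0.43 without GFP 2, and for NICD1&2 it was 0.41 without it. Msln (mesothelin) was highest on NICD1&2 2 (0.21) and NICD2 3 (−0.40), the 2 arrays on which Krt19 was highest, and ranged from −2.76 to −0.92 on the others. Over the 11 arrays Krt19 and Msln had a Pearson correlation of 0.83 and a Spearman correlation of 0.61, and Pearson's value was 0.52 without the 2 arrays farthest from the median of Krt19. For Krt7 and Msln these values were 0.58, 0.62 and, without the 2 arrays farthest from the median of Krt7, 0.27. The part of the mesothelium in the levels of the keratins was not tested.

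**Figure D3:**
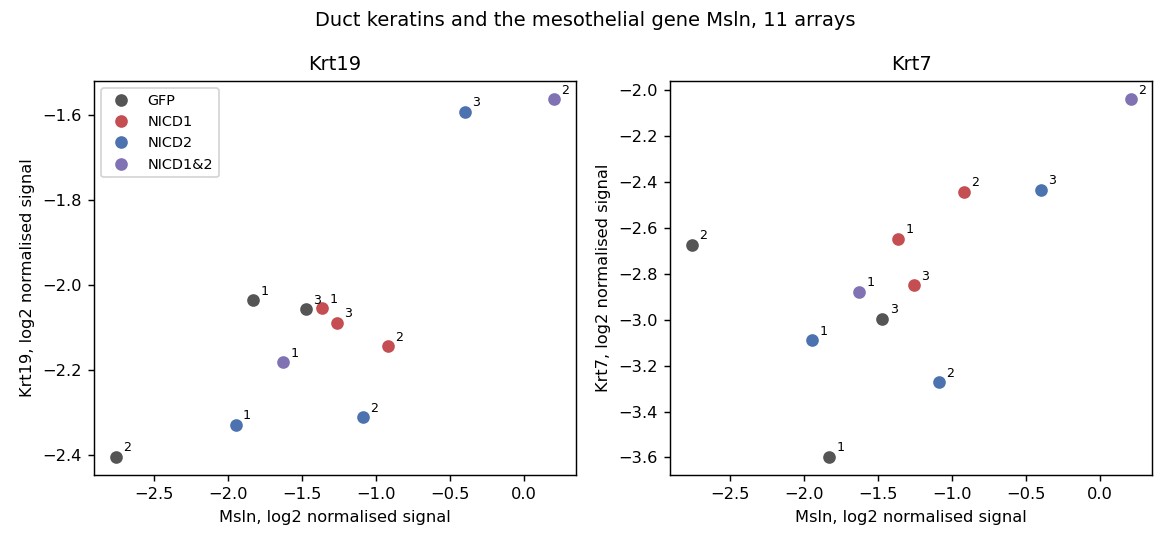
Krt19 (left) and Krt7 (right) against the mesothelial gene Msln on the 11 arrays, all as log2 normalised signal, coloured by group and numbered by mouse. NICD2 3 and NICD1&2 2 have the highest Msln levels, −0.40 and 0.21, and the highest Krt19 levels, −1.59 and −1.56.

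Epcam and Muc1 were higher than GFP on average in all 3 NICD groups. These differences rested largely on the array GFP 1, where neither gene was well above background. Epcam read −4.70, −3.39 and −3.56 with GFP, −3.11, −3.16 and −3.29 with NICD1, −2.98, −3.63 and −3.59 with NICD2, and −3.20 and −3.07 with NICD1&2. The NICD1 and NICD1&2 arrays were above all GFP arrays, and the NICD2 arrays overlapped with them. Differences from GFP were 0.69, 0.48 and 0.74 with all arrays and 0.28, 0.07 and 0.34 without GFP 1, for NICD1, NICD2 and NICD1&2.

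Muc1 read −5.04, −3.79 and −3.52 with GFP, −3.49, −2.92 and −3.29 with NICD1, −3.32, −3.47 and −3.0 with NICD2, and −3.54 and −3.39 with NICD1&2. The single NICD groups lay above all GFP arrays, although NICD1 1 and NICD2 2 were close to GFP 3, and NICD1&2 overlapped with GFP. Differences were 0.88 (1.84-fold, adjusted p = 0.883, limma) for NICD1, 0.85 (1.8-fold, adjusted p = 0.707, limma) for NICD2 and 0.65 for NICD1&2. Without GFP 1 they were 0.42, 0.39 and 0.19.

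Cftr read −4.56, −4.82 and −4.76 with GFP, −4.23, −4.30 and −4.38 with NICD1, −3.59, −4.40 and −4.34 with NICD2, and −4.27 and −4.52 with NICD1&2. Every NICD array was above every GFP array, but only 3 of the 11 values were well above background. The fitted differences from GFP were 0.41 for NICD1 and 0.60 for NICD2, with adjusted p of 0.903 and 0.587 in limma. Without NICD2 1, the only NICD2 array well above background, the difference of NICD2 was 0.34. No fold is given for NICD1&2, where Cftr was not well above background on any array. With another background correction, normexp, the difference for NICD1 turned to −0.0035 and that for NICD2 was 0.032.

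**Figure D4:**
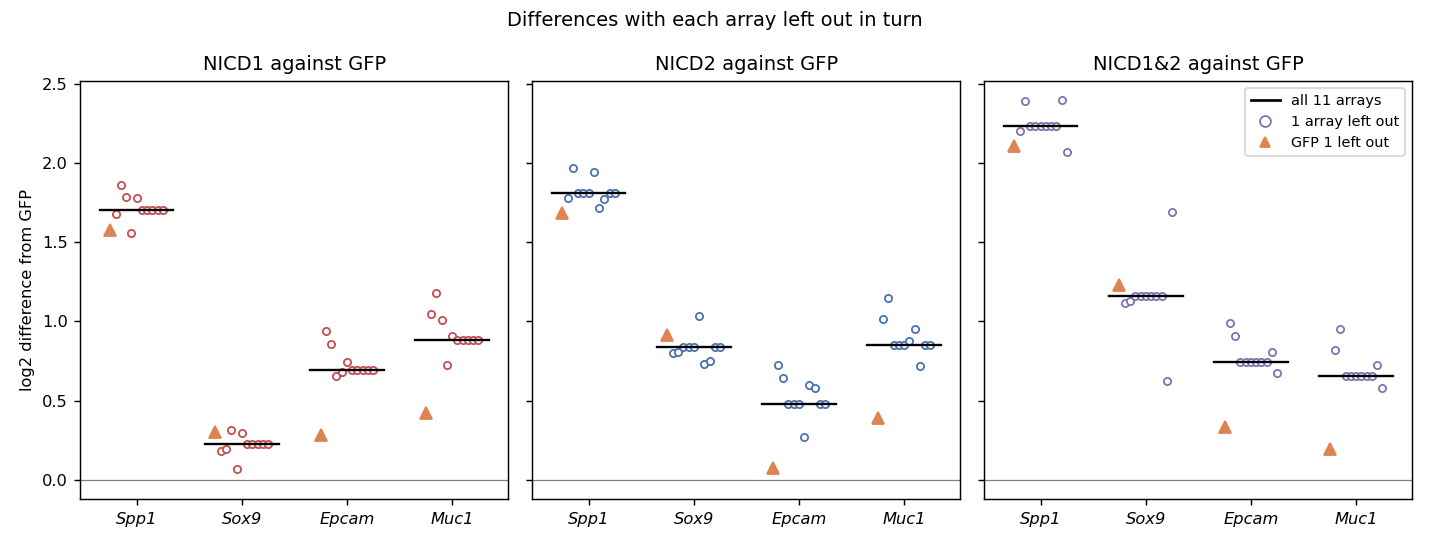
Log2 difference from GFP (vertical axis) of Spp1, Sox9, Epcam and Muc1 in the 3 NICD groups. Black lines are fits to all 11 arrays, open circles fits with 1 array left out, and triangles the fit without GFP 1. The Epcam difference of NICD2 was 0.48 with all arrays and 0.07 without GFP 1, whereas that of Spp1 was 1.81 and 1.69.

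Over the whole group, the fitted differences from GFP of all 8 tested probes were above 0 in each NICD group, where 52.9%, 54.3% and 65% of all probes were, and had medians of 0.43, 0.54 and 0.64. These 3 comparisons share the GFP arrays, and without GFP 1 the difference was above 0 for 7, 7 and 8 probes (44.6%, 46.3% and 60.4% of all), with medians of 0.29, 0.32 and 0.38. With normexp, which here adds an offset of 50 to the signals, the medians were 0.10, 0.14 and 0.16, and Spp1 differed by 1.68, 1.70 and 1.88. The median of 0.64 was 0.65 without Cftr, which gave no fold there. The medians over all 36055 probes were 0.01, 0.02 and 0.12. The value of 0.12 was 0.01 under quantile normalization, so the values of NICD1&2 are to be read relative to this shift. The groups did not overlap, with the NICD arrays higher, for 4, 4 and 5 of the 8 probes, where 6.98%, 7.7% and 24.1% of all probes did so. The study called a gene altered at a p under 0.15 with a fold change over 1.8, and the unadjusted p of limma was used for it here. By that definition 2 member probes were higher with NICD1 and with NICD2 (Spp1 and Muc1) and 2 with NICD1&2 (Spp1 and Sox9), and 0 were lower. Of all probes, 1.73%, 1.33% and 4.79% were higher by that definition. 

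Between the NICD groups, no member probe was called. For NICD1 against NICD2, 0 of the 8 probes were called (0.00277% of all probes), 0 had an unadjusted p under 0.05 (3.74%), 0 met the study's definition with a higher level in NICD1 (0.763%) and 0 were higher without overlap (4.2%). For NICD1&2 against NICD1, 0 were called (0.0139%), 2 had an unadjusted p under 0.05 (12.5%), 1, that of Sox9, met the definition with a higher level in NICD1&2 (1.58%) and 3 were higher without overlap (22%). The 3 were the probe of Spp1 and both probes of Sox9. For NICD1&2 against NICD2, 0 were called (0.00277%), 0 had an unadjusted p under 0.05 (8.9%), 0 met the definition with a higher level in NICD1&2 (2.14%), and 1, that of Spp1, was higher without overlap (18.1%).

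No gene of 4 further duct lists passed the adjusted test against GFP, and 7 of them met the study's definition by their fitted values, with higher levels in an NICD group. Of the 8 transcription factors, 13 junction and surface genes, 12 transport and cilium genes and 9 genes of reactive ducts, 7, 13, 9 and 8 were tested, and 0 were called in either direction in any comparison with GFP. The definition was met by 0, 0, 0 and 0 of them with NICD1 and 0, 0, 1 and 1 with NICD2. With NICD1&2 it was met by 1, 3, 2 and 0. Of all probes, 1.73%, 1.33% and 4.79% were higher by it with NICD1, NICD2 and NICD1&2. An unadjusted p under 0.05 was found for 0, 0, 3 and 1 of them with NICD1, 0, 0, 3 and 2 with NICD2, and 2, 1, 3 and 2 with NICD1&2, where 5.48%, 6.81% and 14.8% of all probes had one. All of these were higher with NICD except Ehf, an epithelial transcription factor, and Pkhd1, which encodes the ciliary protein fibrocystin, both with NICD1&2 and named after their values were seen. They differed by −0.64 and −0.53 (adjusted p = 0.265 and 0.327, limma). Median fitted differences from GFP lay between −0.12 and 0.24 over the 4 lists and 3 groups, and within the same limits when genes without detection in a group were set to their bound or left out.

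The smallest adjusted p-values among them belonged to a bile acid transporter, a ciliary gene and a protease. Slc10a2, the apical sodium-dependent bile acid transporter, read 1.61, 1.45 and 1.45 with GFP and 1.70, 2.17 and 2.26 with NICD1. It read 2.47, 2.44 and 2.38 with NICD2 and 2.54 and 2.33 with NICD1&2. No NICD array overlapped with GFP, and the differences of 0.93 (SE 0.15, adjusted p = 0.0997, limma) for NICD2 and 0.94 (SE 0.16, adjusted p = 0.0984, limma) for NICD1&2 met the study's definition. Cys1, which encodes the ciliary protein cystin, read 0.64, 0.84 and 0.83 with GFP, 0.98, 1.35 and 1.24 with NICD1, 1.34, 1.40 and 1.56 with NICD2, and 1.5 and 1.96 with NICD1&2. Its NICD arrays were all above GFP, and its difference in NICD1&2 was 0.96 (SE 0.17, adjusted p = 0.0984, limma). Mmp7, a matrix metalloproteinase, was well above background on 2 arrays, NICD2 2 and NICD2 3. It therefore passed the filter only through the group in which it was high, and its p-value rests on that selection. It was at least 1.3-fold higher with NICD2 than with GFP, where it was not well above background on any array (adjusted p = 0.0987, limma). This bound is under the fold of the study's definition.

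With NICD1&2, the protease St14, the keratin Krt23, the claudin Cldn4 and the transcription factor Klf5 also met the study's definition by their fitted values, and none of the 4 was called (adjusted p between 0.236 and 0.443, limma). Klf5 was not well above background on any GFP array and was at least 1.78-fold higher, a bound under the fold of the definition. With NICD1&2 it was so on 1 of the 2 arrays, NICD1&2 2, and its fitted difference of 1.46 was 0.91 without that array and 0.071 with normexp. The fitted difference from GFP was 1.03 for St14, 0.87 for Krt23 and 1.24 for Cldn4, and with normexp 0.13, 0.57 and 0.12. St14 was well above background on 10 arrays, all but GFP 1, and its difference was 0.32 without that array and 0.65 without NICD1&2 2. Krt23 was so on all 11 arrays, and its difference was 0.46 without NICD1&2 2. Cldn4 was so on 4 arrays, 1 of them in each of GFP and NICD1&2.

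**Figure D5:**
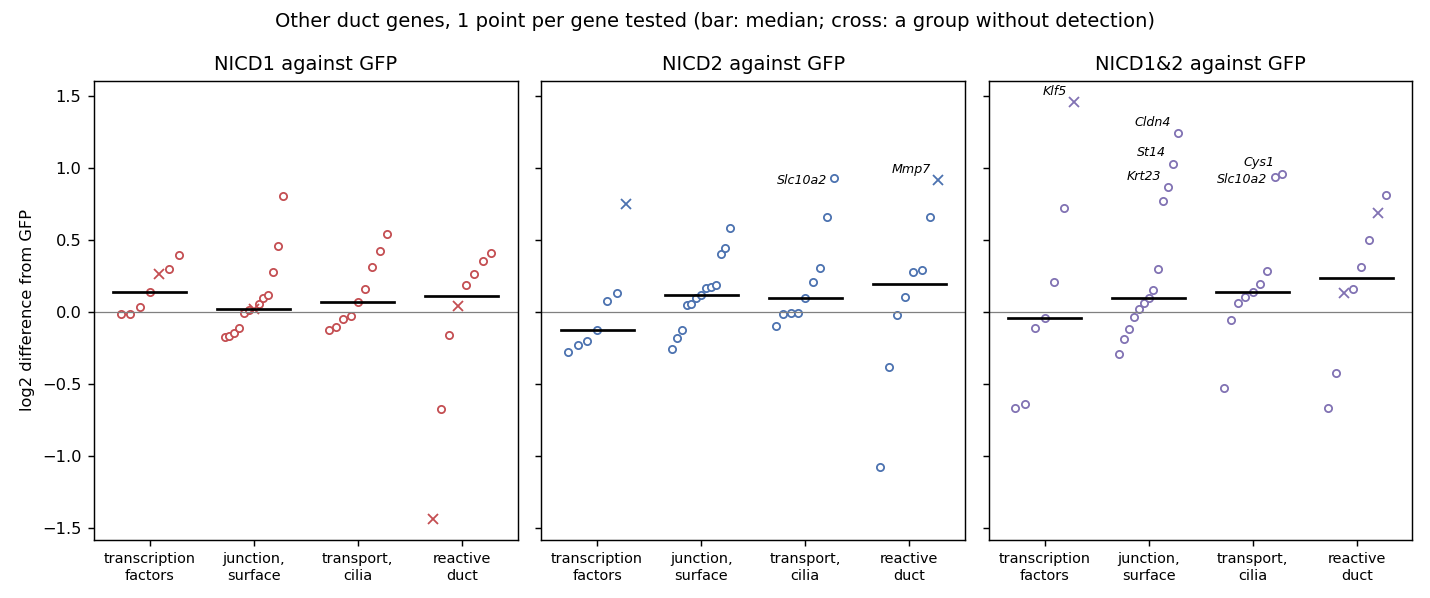
Log2 difference from GFP (vertical axis) of the tested genes of 4 duct lists (horizontal axis) in the NICD1, NICD2 and NICD1&2 livers. Each open circle is 1 gene, crosses are genes not well above background on any array of a group compared, whose fitted value is no measured fold, bars are medians, and named genes met the study's definition with higher levels in the NICD group. The medians lie between −0.12 and 0.24.

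Of 10 Notch receptors, ligands and targets, 8 were tested in the same livers and 0 were called in limma, with an unadjusted p under 0.05 for 2, 3 and 4 of them with NICD1, NICD2 and NICD1&2 (5.48%, 6.81% and 14.8% of all probes). One of these with NICD2, the receptor gene Notch3 (−0.35), and one with NICD1&2, Heyl, were lower. The fitted difference from GFP was above 0 for 5, 4 and 5 of the 8. Hes5 and Hey2 were not well above background on any array. Nrarp, a feedback inhibitor of Notch signalling, was not well above background on any GFP array and was so on 2 NICD1 arrays and on all NICD2 and NICD1&2 arrays. It was at least 1.29-fold, 4.65-fold and 7.07-fold higher than GFP with NICD1, NICD2 and NICD1&2 (adjusted p = 0.839, 0.104 and 0.0719, limma). Without GFP 3 Nrarp passed the threshold with NICD2 (adjusted p = 0.0218, limma) and NICD1&2 (0.0183). Hes1, a repressor induced by Notch, differed from GFP by −0.03, 1.64 and 1.36 (adjusted p = 0.994, 0.419 and 0.280, limma). Hey1 differed by 0.11, 0.29 and 0.71, and Heyl by −0.22, −0.43 and −0.64, where only the last value of each had an unadjusted p under 0.05. Over the 11 arrays, which share these 4 groups, Sox9 had a Pearson correlation of 0.79 with Hes1 and 0.77 with Nrarp, and Spp1 one of 0.88 with Nrarp, which was 0.66 without the 2 arrays farthest from the median of Spp1. On 4 of the 11 arrays Nrarp was not well above background. Spp1 and Sox9 had one of 0.66 with each other.

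The genes whose levels followed Spp1 most closely over the 11 arrays were Tnpo1, Pfkfb4 and Tuba8, with Pearson correlations of 0.96, 0.95 and 0.95. For Sox9 they were Atp11b, Rad54l2 and Tbc1d8, with 0.92, 0.91 and 0.91. For Krt7 they were Smim9, Lif and Adamtsl5 (0.96, 0.95 and 0.95), of which the first 2 were well above background on only 3 and 4 arrays. For Krt19 they were Fam149b, Fam118b and Atg16l1 (0.97, 0.94 and 0.92), of which the last was 0.48 without the 2 arrays farthest from the median of Krt19. These genes were picked as the highest of all named genes, and none of the 8 markers was among them. Epcam and Muc1 had a correlation of 0.81, which was 0.0034 without the 2 arrays farthest from the median of Epcam.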

How the data were processed

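RNA from 11 mouse livers was hybridised to Agilent 1-colour arrays. The authors scanned them and extracted the spots with Feature Extraction 11.5.1.1, and per the file headers the deposited intensities are background-subtracted and not normalized between arrays. The authors normalized in GeneSpring, and their deposited table is on the log2 scale, relative to the 75th percentile of the array. For the member probes it differed from the scanner intensities treated the same way by at most 1.31e-06. The number of arrays limits the precision. The methods name an RNA kit and an array format other than the labels and files do.

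Probes were named through RefSeq (GRCm38.p6), 32994 of 56605 in all, and 36055 that were well above background on at least 2 of 11 arrays were tested. In limma 3.58.1 (R 4.3.3), lmFit and eBayes estimated the mean of each group from the 11 arrays together, after a test on simulated data, with Benjamini-Hochberg adjustment over all probes and a threshold of 0.05. Each gene was led by its probe with the highest mean. The members and the 12 lists of other genes (108 in all) were chosen with earlier results of these data known. In the 4 duct lists and the Notch list, genes were named where called, where they met the study's definition or as defining markers. In the other lists they were named where called or as defining markers, and some that met the definition were not named. The lists of stellate cell and endothelial genes are not described. Beside each gene measured on all arrays, the 3 most correlated with it were named. Where a probe was not well above background on any array of a group, the fold is a lower bound set against the lowest signal well above background on each array. The alternatives were the scanner intensities, quantile normalization, the percentile over detected probes, normexp (offset 50), no filter or a filter of all 11 arrays, the compared groups alone, the replicate number or the slide as a block, each array left out, and the other Sox9 probe.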

Additional observations from a re-analysis of the deposited data

How the results depend on the processing

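The direction of Spp1 against GFP was the same under every alternative. With normexp and with a filter of all 11 arrays Spp1 was also called with NICD1 (1 probe each). With no filter and with the compared groups alone 0 probes were called with NICD2, and with the compared groups alone 0 with NICD1&2. Slc10a2 with NICD2 and NICD1&2, and Cys1 with NICD1&2, were called under normexp and a filter of all 11 arrays, Slc10a2 also without NICD1 1 (adjusted p = 0.0449 and 0.0351) and Cys1 without NICD1&2 1 (0.0388). Nrarp was called with NICD2 and NICD1&2 under normexp and without GFP 3. With each array left out, 0 to 1 probes were called with NICD2 and with NICD1&2. The study's definition was met by 1 probe with NICD1 under quantile normalization, normexp, a filter of all 11 arrays and the slide block, and by 1 with NICD2 under the first 3 of these and the percentile over detected probes. Under normexp it was met by 1 with NICD1&2 against GFP and 0 against NICD1. With each array left out, it was met by 1 to 3 probes with NICD1 and NICD2, 2 to 4 with NICD1&2, and 0 to 1 in NICD1&2 against NICD1 and against NICD2. The lowest of these came without GFP 1 or NICD1 2 (NICD1) and without NICD2 3 (NICD2), and the highest for NICD1&2 without GFP 3. The cause was not tested.

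Small fitted differences turned sign. Under normexp Cftr was −0.0035 for NICD1 and −0.092 for NICD1&2 against GFP, and Muc1 was −0.025 for NICD1 against NICD2. The values of Cftr for NICD1&2 in this paragraph are fitted values and no measured folds. Cftr was not well above background on any NICD1&2 array, so their sign is not read as a direction. Epcam was −0.062 under quantile normalization and −0.022 with the percentile over detected probes (NICD1&2 against NICD1), and with that percentile Krt19 was 0.0064 for NICD1 against NICD2. With the slide block Krt19 was −0.045 for NICD1 against GFP and Muc1 −0.13 for NICD1 against NICD2. With each array left out, NICD1 against NICD2 ranged from −0.34 to 0.070 for Cftr, −0.14 to 0.22 for Krt19 and −0.12 to 0.16 for Muc1. NICD1&2 against NICD1 ranged from −0.22 to 0.032 for the fitted value of Cftr, which is no measured fold. The same comparison ranged from −0.016 to 0.12 for Epcam, −0.087 to 0.53 for Krt19 and −0.23 to 0.61 for Krt7. NICD1&2 against NICD2 ranged from −0.11 to 0.52 for Krt19 and −0.22 to 0.85 for Sox9. Against GFP, Krt19 ranged from −0.049 to 0.14 with NICD1, −0.15 to 0.21 with NICD2 and −0.016 to 0.60 with NICD1&2, and Krt7 from −0.10 to 0.36 with NICD2.

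Arrays with the same replicate number deviated together in 6 of 15 pairs (correlation over 0.1), with a median correlation of 0.036. Pairs with unlike numbers were not set beside these, so whether the numbers mark a pairing cannot be told from this count. With the replicate block 0, 1 and 1 member probes were called against GFP, and Spp1 differed by 1.71, 1.81 and 2.27. Probes near background and 2 or 3 arrays per group limit what could be detected.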

Other observations

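Genes that mark tissue next to the bile ducts were also measured. Pnliprp1, a lipase-related protein of the exocrine pancreas, was not well above background on any GFP array and was at least 5.43-fold higher with NICD2 (adjusted p = 0.00447, limma) and at least 5.36-fold higher with NICD1&2 (adjusted p = 0.00968, limma). With NICD1 it was well above background on 2 of 3 arrays and at least 1.42-fold higher, which did not pass the test (adjusted p = 0.512, limma). Fitted with the compared groups alone the calls of NICD2 and NICD1&2 were lost (adjusted p = 0.0864 and 0.316, limma), and that of NICD1&2 was also lost under quantile normalization (0.0526) and without NICD1&2 2 (0.181). The acinar genes Cpa1, Cela3b and Pnlip were not well above background on any array. The other 4 genes of this list, Cela2a, Ctrb1, Cel and Ctrl, were well above background on all 11 arrays, and their differences from GFP lay between −0.32 and 0.39, with none called. Of 10 genes of the gallbladder and gut, 7 were tested and 0 were called against GFP. Lcn2, which reactive ducts and hepatocytes are known to express, had a log2 difference of −1.33 between NICD1 and NICD2 (adjusted p = 1, limma).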
